A study of Ovis aries with 18 samples.

Results

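In sheep skeletal muscle, 50 genes stood higher in psoas major than in both other muscles examined, while those 2 muscles stood at similar levels. The muscles were psoas major (PM), the tenderloin, which flexes the hip; longissimus lumborum (LL), the loin muscle, which extends the back; and soleus (SOL), which lies in the lower hind leg and helps to hold posture. Each was represented by 6 libraries, 18 in all, made from total RNA after depletion of ribosomal RNA; the labels name no treatment, breed, sex or age, and the series' design text places all samples on the left side of the carcass. Levels are FPKM, reads per kilobase of gene and scaled to the library's total of counted reads. The members were the genes with a PM mean of at least 5 FPKM that was at least 1.5 times the LL mean and at least 1.5 times the SOL mean, with the LL and SOL means less than 2-fold apart. They were 50 of 20477 genes in the table and 50 of 8837 genes with a PM mean of at least 5 FPKM. They were chosen by these group means of FPKM over all 18 libraries, so the levels in the 3 muscles are given as a description without a test.

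Skeletal muscles differ in their mix of slow oxidative and fast glycolytic fibres, which carry different isoforms of myosin and of the calcium-handling and contractile proteins. Soleus is known as a slow postural muscle in many mammals, and the loin and tenderloin muscles as faster ones. Muscles also keep differences in patterning genes that date from their place in the embryo: longissimus arises from the epaxial muscle of the back, and psoas from hypaxial muscle. Psoas major lies along the lumbar spine close to longissimus, so a gene high in psoas alone separates a pair of neighbouring muscles as well as a trunk muscle from a leg muscle. The table identifies genes by Ensembl identifier alone, and 0 of the identifiers matched the RefSeq gene table used. No gene name or function is therefore given for a member, the labelled muscles could not be checked against defining fibre or patterning genes, and lists of fibre type, metabolic and other cell type genes had no members to describe. In bulk samples such as these, fewer cells of a type and less RNA per cell cannot be told apart.

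Reads behind the values were recovered from the table, since each FPKM equals a whole number of reads at a fixed gene length and library total. Library totals ranged from 10216739 to 14747118 reads, and LL libraries had fewer genes with a read (12704 to 14552) than PM libraries (14647 to 14942) and most SOL libraries (14181 to 15421). The summed level of the 50 members was higher in each PM library than in any other: it ranged from 1941 to 4933 FPKM in PM, from 873 to 1659 in LL and from 787 to 1245 in SOL. Members drew 0.292% to 0.695% of all reads in PM, 0.127% to 0.221% in LL and 0.124% to 0.184% in SOL. The most abundant member made up much of these sums, and without it the sums were 1137 to 2028 FPKM in PM, 541 to 921 in LL and 601 to 738 in SOL. PM 2 had the highest summed level with and without it. Other libraries stood apart in measures outside the members: LL 3 and SOL 5 had the fewest genes with a read in their muscles (12704 and 14181). In SOL 3, all 11 genes whose LL and PM means both reached 10 FPKM and that stayed under 1% of the lower mean in the remaining SOL libraries exceeded 1%, and 0 of the 11 were members. Counts without LL 3, SOL 3 and SOL 5 are given beside those that moved.

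**Figure D1:**
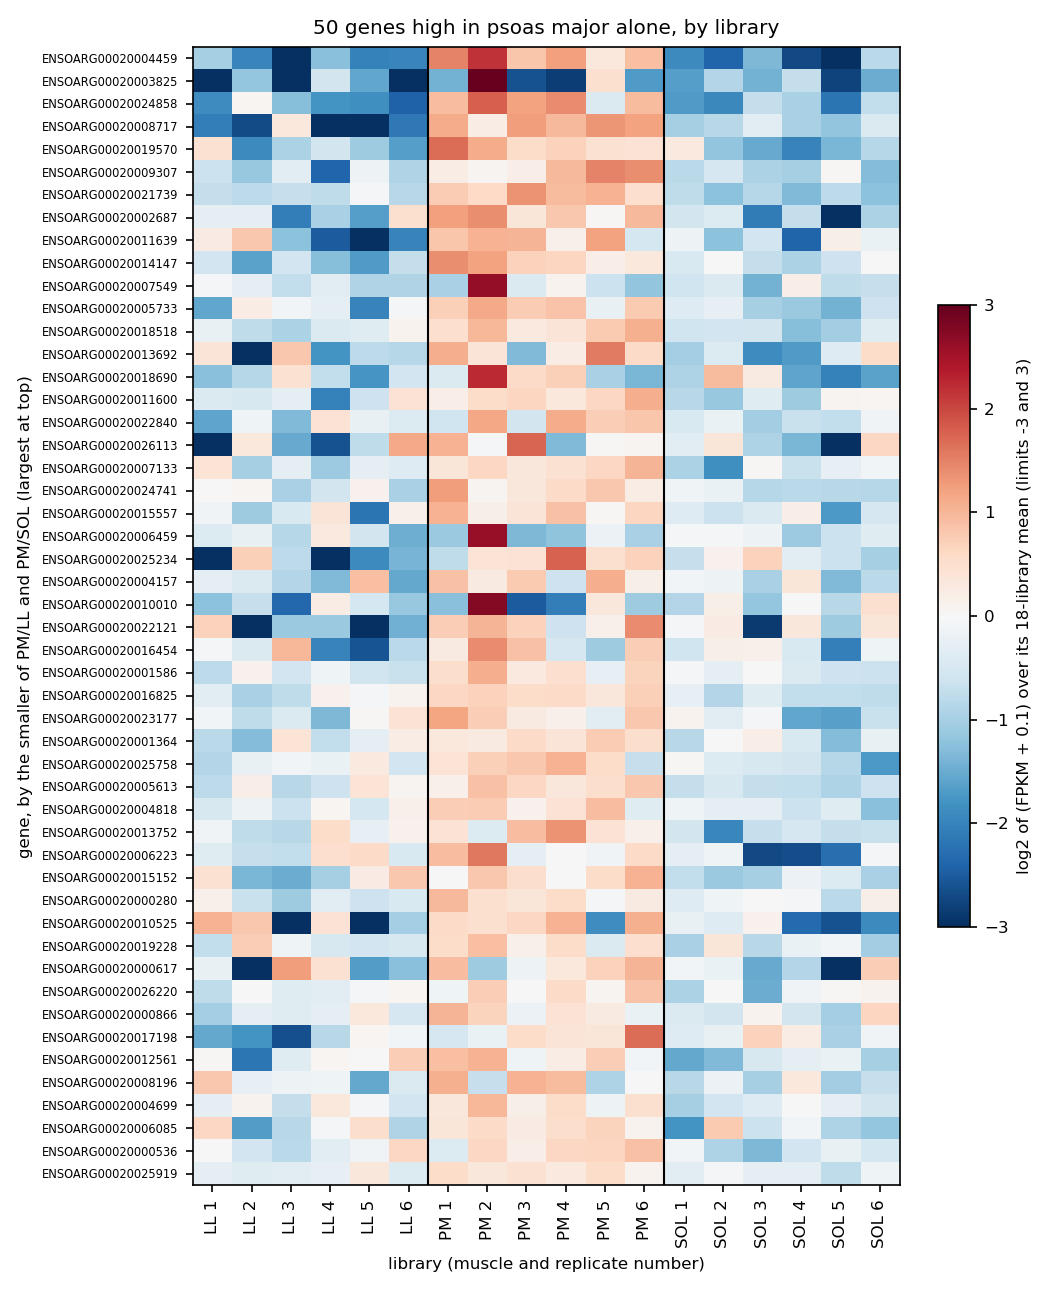
Each row is 1 of the 50 members, ordered by the smaller of its 2 ratios (PM over LL and PM over SOL, largest at the top), and each column is 1 library; colour gives log2 of FPKM + 0.1 relative to the mean of that quantity over the 18 libraries. The 6 PM columns are red in most rows, a few rows are dark red in PM 2 alone, and single LL and SOL cells are red in many lower rows.

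Most members were modestly raised. The median member stood 1.90-fold above LL and 2.17-fold above SOL. The smaller of the 2 ratios was at least 5 in 3 members, at least 3 in 5 and at least 2 in 16, and the other 34 lay between the bound and 2. Among the 8837 genes with a PM mean of at least 5 FPKM, members included, these counts were 7, 10 and 24. The genes at these ratios that are not members failed the bound between LL and SOL. By level, 22 members had a PM mean under 10 FPKM, 24 from 10 to 100 and 4 above 100. On the log2(FPKM + 0.1) scale used for modelling, the median member difference was 0.96 for PM minus LL and 1.12 for PM minus SOL, against 0.06 and -0.15 over all 15434 genes tested.

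**Figure D2:**
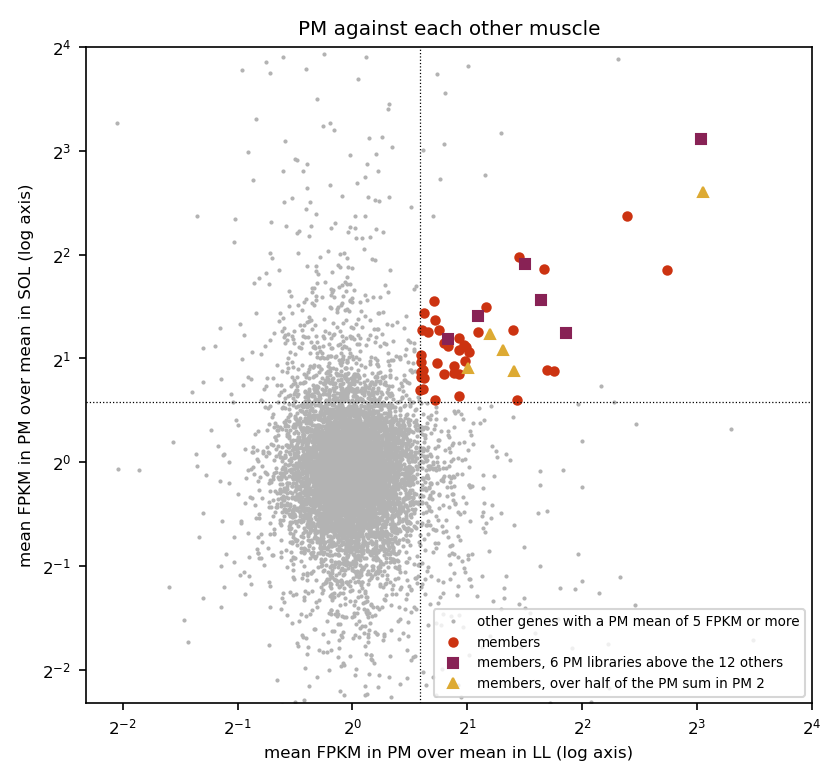
Each point is a gene with a PM mean of at least 5 FPKM; the horizontal axis is its PM mean over its LL mean and the vertical axis its PM mean over its SOL mean, both on log axes, with dotted lines at 1.5. Members lie in the upper right corner, most of them close to the lines, beside other genes that failed the bound between LL and SOL. Squares are the 6 members with 6 PM libraries above the 12 others. Triangles are the 5 members with over 50% of their PM sum in PM 2, and 69 genes lie outside the axes.

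The most abundant member was ENSOARG00020024858, with a recovered gene length of 925 bp. Its level was 626 to 2905 FPKM in PM (median 1782), 157 to 881 in LL (median 240) and 184 to 516 in SOL (median 346). The PM mean was 1825 ± 761, that of LL 349 ± 268 and that of SOL 353 ± 149 (SD, n = 6 for each muscle), or 5.23-fold above LL and 5.17-fold above SOL. All PM libraries but 1 exceeded all LL and SOL libraries. PM 5, at 626 FPKM, lay below LL 2 at 881. The remaining LL libraries reached at most 349 FPKM. Its reads numbered 126395 over the 6 PM libraries, against 23360 in LL and 25468 in SOL.

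Another 6 members had no overlap between PM and either of the other muscles: every one of their 6 PM libraries exceeded all 12 LL and SOL libraries. Over all genes tested this held for 12, or 0.0778%, and since the rule used these contrasts nothing is read from the difference. ENSOARG00020004459 (2390 bp) had the largest separation. It stood at 71.1, 112, 44.7, 58.7, 31.0 and 47.0 FPKM in PM 1 to 6, at 2.95 to 12.5 in LL (median 6.31) and at 2.92 to 14.2 in SOL (median 5.64). The lowest PM library, PM 5, still stood well above the highest library of the other muscles, SOL 6 at 14.2. The PM mean was 60.8 ± 28.7, that of LL 7.43 ± 3.44 and that of SOL 7.01 ± 4.32 (SD, n = 6 each), ratios of 8.18 to LL and 8.68 to SOL.

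ENSOARG00020021739 (2561 bp) was steadier. It ranged from 38.1 to 68.2 FPKM in PM (median 48.9), from 15.0 to 26.4 in LL (median 16.0) and from 10.7 to 15.8 in SOL (median 13.2). The SD was 11.1 FPKM in PM, 4.33 in LL and 2.33 in SOL (n = 6 each), and the PM mean stood 2.84-fold above LL and 3.76-fold above SOL. LL 5, at 26.4 FPKM, stood apart from the other LL libraries, which reached 16.6 at most, and still lay below each PM library.

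The most abundant of the 6 was ENSOARG00020018518 (2246 bp), with 83.5 to 143 FPKM in PM (median 107), 35.5 to 73.1 in LL (median 51.8) and 28.0 to 52.8 in SOL (median 45.2). Its means were 111 ± 24.7, 51.8 ± 13.4 and 41.7 ± 9.34 FPKM (SD, n = 6 each). ENSOARG00020016825 (1785 bp) varied least within PM, at 47.5 to 61.2 FPKM (mean 56.0 ± 4.96), and stood at 18.8 to 41.2 in LL (31.4 ± 9.40) and 20.4 to 31.4 in SOL (24.6 ± 4.39). Its ratios were small, 1.78 to LL and 2.28 to SOL, yet no library of another muscle reached the lowest PM library.

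The last members of this group were expressed at a low level. ENSOARG00020009307 (945 bp) stood at 5.54 to 14.9 FPKM in PM (median 8.20), 0.921 to 4.68 in LL (median 3.04) and 2.04 to 5.31 in SOL (median 2.79). The gap between the groups was narrow, since SOL 5 at 5.31 lay just under PM 2 at 5.54, and the PM values rest on 656 reads over 6 libraries. For ENSOARG00020014147 (2278 bp) the range was 4.98 to 11.4 FPKM in PM (median 6.88), 1.26 to 2.84 in LL (median 2.13) and 2.17 to 4.37 in SOL (median 2.94). Its PM mean of 7.59 ± 2.57 was 3.64-fold above LL and 2.37-fold above SOL (SD, n = 6), and PM 1 and PM 2 were its highest libraries.

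**Figure D3:**
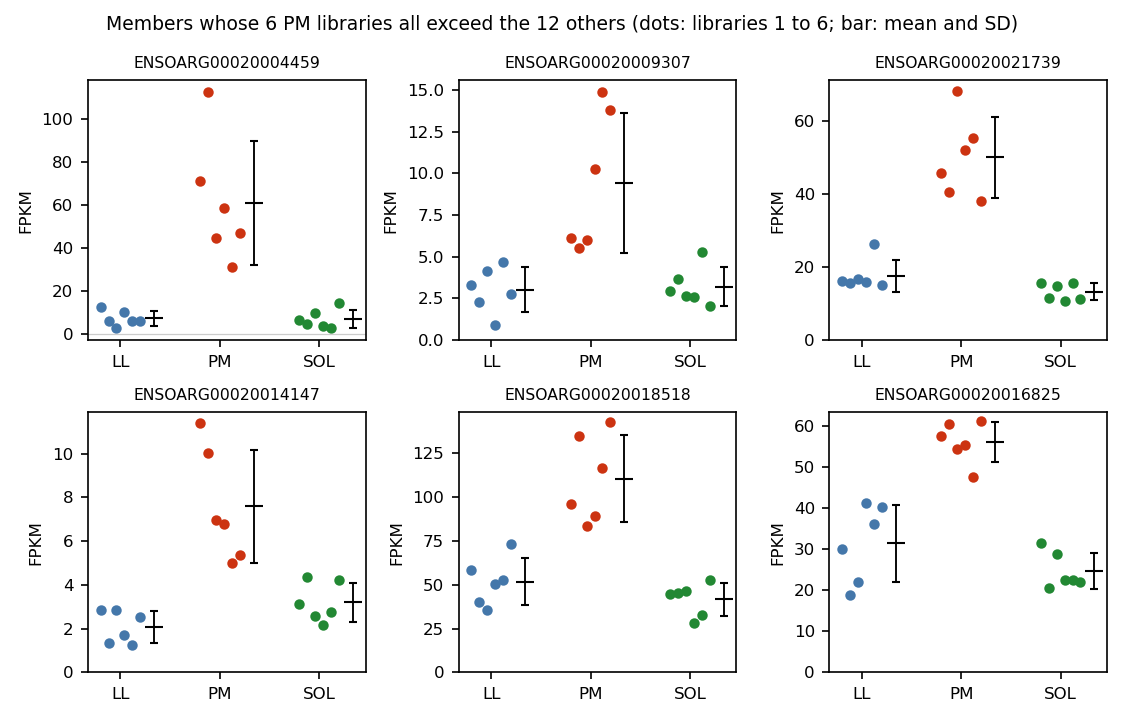
FPKM of the 6 members without overlap, on a linear axis, for LL (blue), PM (red) and SOL (green); dots are libraries 1 to 6 from left to right and the black bar is the mean ± SD. In each panel the 6 red dots lie above all other dots, with the widest gap for ENSOARG00020004459 (31.0 against 14.2 FPKM) and the narrowest for ENSOARG00020009307 (5.54 against 5.31 FPKM).

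Overlap was the usual case. Of all 50 members, 24 had at least 4 of the 6 PM libraries above all 12 others, and 14 had 0 or 1. No share over all genes was computed for these counts. All 6 PM libraries exceeded all 6 SOL libraries for 20 members, against 584 of all genes tested (3.78%). They exceeded all 6 LL libraries for 6 members, against 111 of all genes tested (0.719%). Within a replicate number, PM exceeded LL and SOL for all 6 numbers in 21 members, for 5 numbers in 16 and for 2 or 3 in 7. Among the 8837 genes with a PM mean of at least 5 FPKM, 70 did so for all 6 numbers and 284 for 5 or 6. The rule used these contrasts, so nothing is read from any of these counts. ENSOARG00020006085 (357 bp) shows how a member could meet the rule with no library standing out: PM ranged from 15.2 to 22.8 FPKM (median 19.4), inside the range of SOL, from 4.01 to 24.8 (median 8.21), and nearly inside that of LL, from 4.36 to 21.9 (median 11.0).

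Several strongly raised members overlapped with other muscles in only a few libraries. ENSOARG00020008717 (1452 bp) stood at 5.91 to 12.8 FPKM in PM (median 11.3), 0.109 to 6.27 in LL (median 0.873) and 2.15 to 3.98 in SOL (median 2.63). The overlap came from LL 3, at 6.27 FPKM where the remaining LL libraries reached 1.11 at most, and from PM 2, the lowest PM library. Its PM mean was 6.68-fold above LL and 3.61-fold above SOL. With LL 3 left out it no longer met the rule, because the LL and SOL means were then more than 2-fold apart.

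ENSOARG00020019570 (9711 bp) ranged from 4.38 to 10.5 FPKM in PM (median 5.00), from 0.786 to 4.44 in LL (median 1.55) and from 0.725 to 3.99 in SOL (median 1.26). Replicate number 1 held its highest library in each muscle: PM 1 at 10.5, LL 1 at 4.44 and SOL 1 at 3.99 FPKM. ENSOARG00020002687 (2463 bp) stood at 4.64 to 12.1 FPKM in PM (median 8.48), 0.993 to 6.33 in LL (median 2.97) and 0.358 to 3.40 in SOL (median 2.51), with no overlap between PM and SOL. ENSOARG00020011639 is a gene of only 186 bp, for which the values rest on 233 reads in PM, 86 in LL and 104 in SOL. It stood at 6.97 to 23.4 FPKM in PM (median 19.2), 0.440 to 17.6 in LL (median 3.31) and 1.80 to 11.3 in SOL (median 7.70). Its overlap was broader: 5 LL and SOL libraries exceeded PM 6 at 6.97 FPKM, namely LL 1 (11.9), LL 2 (17.6), SOL 1 (8.99), SOL 5 (11.3) and SOL 6 (8.72), and LL 1, LL 2 and SOL 5 also exceeded PM 4 at 11.2.

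Among the abundant members, ENSOARG00020022840 (1425 bp) stood at 142 to 479 FPKM in PM (median 371), 72.1 to 290 in LL (median 174) and 104 to 199 in SOL (median 146). Replicate numbers 1 and 3 were the lowest in PM (142 and 146) and in LL (72.1 and 85.6). In SOL, number 3 was again the lowest at 104 FPKM, while number 1 stood at 156, above numbers 3, 4 and 5. ENSOARG00020004699 (2211 bp) stood at 142 to 316 FPKM in PM (median 212), 96.5 to 197 in LL (median 141) and 80.1 to 161 in SOL (median 115). Its mean ratio to LL, 1.51, lay close to the bound, and 4 of its 6 PM libraries exceeded all others.

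Among the 10 most abundant members in PM there were 3 others. ENSOARG00020026220 (867 bp) had a PM mean of 63.0 ± 18.0 FPKM, while LL had 41.1 ± 8.31 and SOL 38.7 ± 14.4 (SD, n = 6 for each muscle), and PM 1 at 43.4, PM 3 at 47.9 and PM 5 at 50.7 lay below SOL 6 at 50.9. ENSOARG00020013752 (951 bp) had 59.0 ± 25.2 in PM, 35.9 ± 13.3 in LL and 22.9 ± 6.44 in SOL, with PM 4 at 101 and PM 2 at 29.5. ENSOARG00020011600 (1572 bp) had 35.9 ± 8.05, 17.8 ± 8.52 and 17.2 ± 6.46 FPKM; its PM libraries, from 27.2 upward, exceeded all SOL libraries and overlapped LL only through LL 6 at 32.2.

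For 5 members the PM mean came mainly from PM 2, which held over 50% of the PM sum. This was 10.0% of members, against 0.317% (28) of the 8837 genes with a PM mean of at least 5 FPKM; a high mean in PM is part of the rule, so the share is only described. Of those 28 genes, 23 had PM 2 as the library in question. ENSOARG00020003825 (1625 bp) stood at 101 FPKM in PM 2 and at 1.14 to 12.2 in the other PM libraries. LL held 0.418 to 5.84 FPKM (median 1.93) and SOL 1.17 to 5.26 (median 3.07), so that the PM median of 2.89 lay below that of SOL. ENSOARG00020010010 (10089 bp) stood at 85.8 FPKM in PM 2 and at 2.16 to 16.1 in the other PM libraries, against 2.38 to 14.7 in LL and 5.59 to 17.6 in SOL. Here 72.6% of the PM sum was in PM 2, and the mean of the other 5 PM libraries was 0.606 times the SOL mean.

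The other 3 members of this kind also had PM 2 as their highest library. ENSOARG00020007549 (825 bp) stood at 57.8 FPKM in PM 2, at 3.98 to 9.93 in the other PM libraries, at 4.87 to 8.75 in LL and at 3.37 to 10.6 in SOL. ENSOARG00020006459 (1725 bp) stood at 51.3 FPKM in PM 2, at 3.18 to 7.28 in the other PM libraries, at 2.91 to 10.1 in LL and at 3.84 to 8.05 in SOL. In ENSOARG00020018690 (942 bp), PM 2 at 21.4 FPKM held 50.3% of the PM sum. The other PM libraries of that gene stood at 1.65 to 7.33, LL at 1.22 to 6.13 and SOL at 1.01 to 8.63. Unlike in ENSOARG00020003825 and ENSOARG00020010010, its PM median of 4.96 FPKM was 1.98 times the larger median of the other muscles, and PM was the highest muscle within 5 of the 6 numbers. Without PM 2, none of these 5 genes met the rule.

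**Figure D4:**
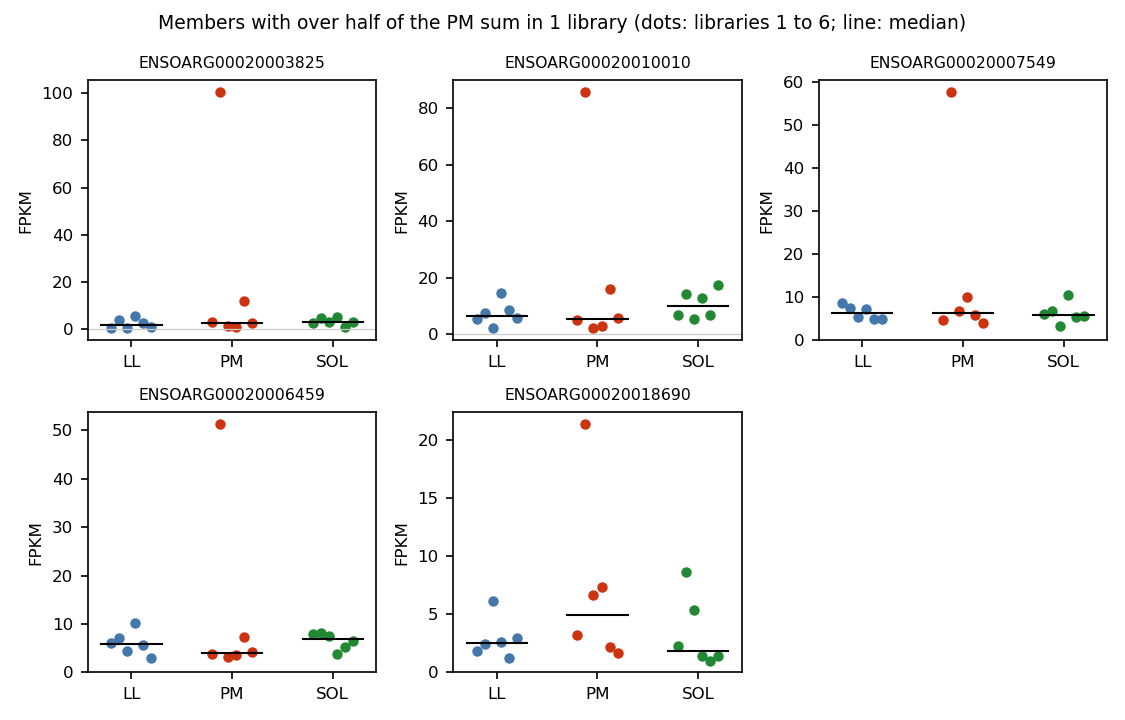
FPKM of the 5 members with over 50% of their PM sum in PM 2, on a linear axis, for LL (blue), PM (red) and SOL (green); dots are libraries 1 to 6 from left to right and the line is the median. PM 2, from 21.4 to 101 FPKM, is the only dot far from the rest in each panel.

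Deviations from the muscle means were then compared between members. For the 5 genes picked for their high PM 2, a positive correlation over the 18 libraries follows from that choice: the mean Pearson r was 0.60. Without PM 2 their pairs had an r of -0.46 to 0.82 (mean 0.14), and the mean over pairs of the other 45 members was 0.022. For all 50 members the mean r was 0.035 over 1225 pairs, lower than the 0.054 for all genes with a PM mean of at least 5 FPKM. After median-ratio scaling the order was the other way round, 0.020 for members and 0.0033 for all such genes. Without PM 2 the members' mean r was 0.019, and without SOL 5, in which 14 of 50 members lay above the muscle mean, it was also 0.019. All are descriptions over libraries that share depth and composition.

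Across libraries, PM 2 was the highest PM library for 17 of the 50 members (34%), against 26.9% of genes with a PM mean of at least 5 FPKM. PM 6 followed with 11 members and PM 5 with 9. PM 5 was at the same time the lowest PM library for 15 members (30.0%, against 15.4% of those genes). The median coefficient of variation of LL was 47.2%, that of PM 34.6% and that of SOL 38.6%, against 26.1%, 19.7% and 20.6% for genes with a PM mean of at least 5 FPKM. A rule on ratios of means over 6 libraries favours genes with a wide spread, so nothing is read from this difference. Of the 12 other libraries, LL 6 most often held the highest value, in 9 members (18%, against 4.04% of genes with a PM mean of at least 5 FPKM).

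The rule was applied again without each library in turn. Between 43 and 64 genes then met it, and 22 of the 50 members met it in all 18 cases, the 6 members without overlap among them. Leaving out PM 2 removed the most members, 14, and added 7 genes, while leaving out PM 3 removed 3 and added 17. The 22 had a median smaller ratio of 2.07 and none below 1.67. With medians in place of means 62 genes met the rule, 36 of them members. Without LL 3, SOL 3 and SOL 5 together, 49 genes met it and 37 of these were members.

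**Figure D5:**
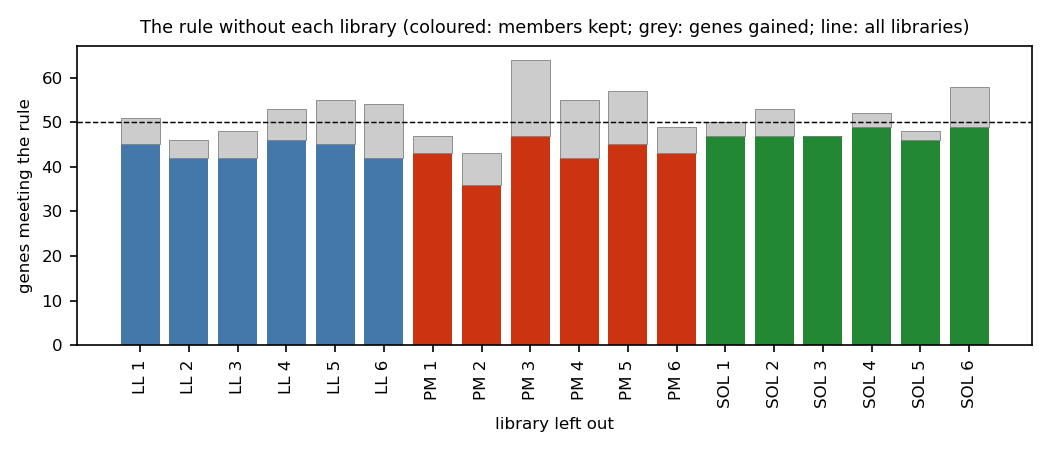
Number of genes that met the rule when 1 library was left out (horizontal axis); coloured bars are members kept (LL blue, PM red, SOL green), grey bars are genes gained, and the dashed line marks the 50 members of the full data. The coloured bar is shortest without PM 2, with 36 members kept, and the total is highest without PM 3, with 64 genes.

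How each member's difference related to the spread between libraries was examined with limma fitted to all 15434 genes. At an adjusted p under 0.05, 14 members were higher in PM than in LL, against 144 of all genes tested (0.933%). For PM over SOL, 28 members were called, against 899 of all genes tested (5.82%). Both calls applied to 12 members, against 18 of all genes tested (0.117%), and neither to 20 members. The rule used these contrasts, so nothing is read from these counts. Both comparisons share the PM libraries. The count against LL fell whichever of the 18 libraries was left out, to between 7 and 12. It was 7 for PM 4, 8 for PM 2 or PM 6, 9 for LL 3, PM 3 or PM 5, and 10 to 12 for the other libraries, all 6 SOL libraries among them. Between SOL and LL, 1 member was called, ENSOARG00020008717, higher in SOL, against 25.4% of genes tested. That count became 0 when LL 4 or SOL 3 was left out, 2 for LL 1 or LL 6, 3 for LL 3 and 4 for LL 2. The shares over all genes without single libraries were not computed for these 2 comparisons, so nothing is read from the changes. All of these fits had no block for replicate number, and the counts with it are given at the end.

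The replicate number was not part of the rule, and number effects are balanced over the muscles. Numbers 1 to 6 recur in each muscle, and the labels do not tie a number to an animal. Of the 50 members, 1 (2.00%) differed among numbers at an adjusted p under 0.05 (limma F-test, muscle as covariate), against 1.89% of all genes tested, a share near the background. At an unadjusted p under 0.05 there were 14 members (28.0%), against 16.4% of all genes tested and 19.5% of genes with a PM mean of at least 5 FPKM. A single high PM library raises both the PM mean and the effect of its number. The rule also favours genes with a wide spread, so nothing is read from this difference.

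ENSOARG00020016454 (2607 bp) was the member called. It stood at 4.46, 3.44, 9.42, 1.09, 0.691 and 2.61 FPKM in LL 1 to 6, at 5.67, 12.6, 8.65, 3.23, 2.16 and 7.79 in PM 1 to 6, and at 3.05, 5.27, 5.17, 3.38, 1.04 and 4.24 in SOL 1 to 6. Number 5 was the lowest in all 3 muscles, and numbers 2 and 3 were the highest pair in PM and SOL. Averaged over muscles, the deviation ran from -1.57 at number 5 to 1.01 at number 3 on the log2(FPKM + 0.1) scale, a range of 2.58 (limma F-test adjusted p = 0.022). Over 23 alternatives the adjusted p from this F-test ranged from 0.015 to 0.12 and was under 0.05 in 19. It rose to 0.082 when LL 5 was left out, to 0.061 for PM 5, to 0.065 for SOL 5 and to 0.12 for LL 3, SOL 3 and SOL 5 together. The count of members called was 2 without LL 2, PM 3, PM 6, SOL 1, SOL 3 or SOL 4, 3 without LL 3, and 0 without LL 5 or SOL 5. Over all genes tested the share called ran from 1.37% without PM 6 to 2.31% without LL 2. Nothing is read from these changes in the member count.

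The members' gene models were also compared by their recovered length, which the rule did not use directly. The median was 1527 bp (range 180 to 10089), near the 1585 bp of all genes with a PM mean of at least 5 FPKM. Lengths divisible by 3, as the length of a coding sequence alone would be, were found for 38 of 50 members (76.0%), against 45.0% of those 8837 genes. Whether these gene models hold coding sequence alone was not tested, and the 2 sets were not matched for level or length. Shorter than 500 bp were 7 members (14.0%), against 4.63% of those genes, and these had 102 to 829 reads over the 6 PM libraries. Short genes reach 5 FPKM on few reads, and the rule favours genes with a wide spread, so nothing is read from this share. The shortest, ENSOARG00020022121 (180 bp), shows the counting limit: it had 208 reads in PM, 117 in SOL and 58 in LL, with LL 2 and LL 5 at 0 and LL 1 at 15.6 FPKM. Its PM libraries ranged from 6.24 to 25.9 FPKM (median 15.8), SOL from 1.22 to 12.4 (median 10.3) and LL from 0 to 15.6 (median 3.92). A library at 0 occurred in 5 members, and 45 had reads in all 18 libraries.

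LL stood above SOL in 33 members (66%) and not above it in 17, within the bound of the rule. Among genes with a PM mean of at least 5 FPKM the share was 43.1%. The rule bounded the LL and SOL means, so nothing is read from this difference. The members nearest to the 1.5-fold bound were ENSOARG00020025919 (3187 bp) with a smaller ratio of 1.504, ENSOARG00020000536 (882 bp) with 1.509 and ENSOARG00020006085 with 1.510. Just outside were ENSOARG00020008247 with 1.496, ENSOARG00020005100 with 1.495 and ENSOARG00020001967 with 1.486. ENSOARG00020025919 stood near the bound with little spread: PM held 20.4 to 27.8 FPKM (median 24.9), LL 14.2 to 23.9 (median 15.2) and SOL 11.1 to 18.1 (median 15.4), and PM and SOL did not overlap. ENSOARG00020000536 stood at 15.7 to 37.9 FPKM in PM (median 31.8), 11.9 to 32.1 in LL (median 18.0) and 8.05 to 19.7 in SOL (median 14.2).

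At the level bound of 5 FPKM, the lowest members in PM were ENSOARG00020000866 (1059 bp) with a mean of 5.26 ± 1.80 FPKM and ENSOARG00020007133 (3431 bp) with 5.29 ± 1.01 (SD, n = 6 each). The genes just below it were ENSOARG00020009385 with a mean of 4.74 and ENSOARG00020020118 with 4.59. At the bound between LL and SOL, ENSOARG00020008717 with a 1.85-fold difference and ENSOARG00020022121 with 1.83 were the last inside. ENSOARG00020017241 with 2.68 and ENSOARG00020008839 with 2.98 were the first outside.

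Of the genes that are not members, 3 resembled the members' mean pattern most over the 18 libraries (Pearson r of z scores, with no test). ENSOARG00020015364, with r = 0.82, stood at 58.2 ± 5.63 FPKM in PM, 40.4 ± 5.88 in LL and 42.6 ± 5.72 in SOL, a smaller ratio of 1.37. ENSOARG00020008839, also with r = 0.82, stood at 51.3 ± 24.2 in PM, 10.3 ± 5.57 in LL and 3.46 ± 2.08 in SOL, and failed the bound between LL and SOL. ENSOARG00020003944, with r = 0.80, stood at 67.8 ± 17.2 in PM, 50.1 ± 4.13 in LL and 43.9 ± 5.75 in SOL (SD, n = 6 for each muscle).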

How the data were processed

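Per the labels' protocols, adapters and low-quality reads were removed, HISAT2 (2.2.1) did the alignment and StringTie (2.2.0) the transcript assembly. DESeq stands in the submitters' processing notes with no role given. For build, annotation, counting program and strand setting, nothing was stated in the labels used here. The values the authors deposited are FPKM; the header names no unit, and the unit was read from the values: at whole library totals (the fitted totals lay within 0.0024 of whole numbers) and the smallest whole gene length that fitted, the reads behind each of the 261253 positive values were whole to within 0.00014.

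The members and lists were chosen with earlier results of these data known. The rule also leaves out ENSOARG00020004175 by name. With means of 0 FPKM in LL, 10.9 in PM and 1.32 in SOL, that gene also failed the bound between LL and SOL, so no member was lost. Because the table holds normalized values, the 15434 genes whose mean over the 18 libraries reached 0.1 FPKM entered limma-trend (limma 3.58.1 under R 4.3.3) as log2(FPKM + 0.1), fitted by muscle without a block, with 15 residual degrees of freedom; p-values were adjusted over all of them (Benjamini-Hochberg), two-sided at 0.05. The added 0.1 draws low values together on this scale. Differences of mean log2 values need not match the ratios of means, and for genes with values near 0 they can be larger. The F-test among replicate numbers added number to muscle. Scripts were tested on simulated data. Members named are the 10 with the highest PM mean, the 10 with the largest smaller ratio, those whose PM libraries all lie above the 12 others, those with over 50% of the PM sum in 1 library, the 3 or 2 nearest to a bound and those called among numbers.

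Deviations from the muscle means correlated between same-numbered PM and SOL libraries in all 6 pairs (r from 0.13 to 0.23), so the numbers were taken to pair PM and SOL, every r being over 0.1. Same-numbered LL libraries had r from 0.090 to 0.18 with PM and 0.086 to 0.19 with SOL. These lay above all pairs of different numbers (at most 0.0070 and 0.052), as those of PM and SOL did (at most 0.017). Not all were over 0.1, so that bound left LL out, although the separation was as complete. The reported fits between muscles had no block, so they did not use the pairing of any muscles. The labels tie no number to an animal, so the p-values speak of variation among these libraries, which may be technical. Alternatives were the replicate block, other pseudocounts, filters and scaling, voom on recovered reads, fits on 12 libraries, other bounds of the rule, medians and leaving out each library. Leaving out LL 3, SOL 3 and SOL 5 together was chosen after seeing the data.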

Additional observations from a re-analysis of the deposited data

Results flagged for a closer look

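For the 28 named members, the highest and the lowest library of each muscle were compared with the other 5 (Dixon's test). Of 84 sets, 14 had a library apart from the rest. Chance marks about 1 set in 20, but the members were chosen on these same values, and 5 of the 14 are the PM 2 values of genes named because PM 2 held over 50% of their PM sum, so the count is not set against chance.

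PM 2 was the highest library by such a gap in 5 sets. ENSOARG00020003825 reached 101 FPKM there while the remaining PM libraries stayed at or below 12.2, ENSOARG00020010010 reached 85.8 with 16.1 as the next PM value, and ENSOARG00020007549 reached 57.8 with 9.93 as the next. For ENSOARG00020006459 the pair of values was 51.3 and 7.28, and for ENSOARG00020018690 it was 21.4 and 7.33. These are the 5 members whose PM mean came mainly from that library. ENSOARG00020007133 reached 7.15 FPKM in PM 6, with 5.43 as the next PM value.

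In LL, 6 sets were marked by a high library. ENSOARG00020024858 reached 881 FPKM in LL 2, with 349 as the next LL value, and ENSOARG00020022121 reached 15.6 in LL 1, with 4.39 as the next. LL 3 was high for ENSOARG00020008717 (6.27 FPKM against 1.11 or less) and ENSOARG00020018690 (6.13 against 2.95 or less). LL 5 was high for ENSOARG00020021739 (26.4 FPKM against 16.6 or less) and ENSOARG00020025919 (23.9 against 15.8 or less).

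In SOL, ENSOARG00020019570 reached 3.99 FPKM in SOL 1, with 1.73 as the next SOL value, and ENSOARG00020013752 was low in SOL 2, at 10.0 FPKM against 24.0 or more.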

How the results depend on the processing

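Other bounds of the rule changed its size: 201 genes met it at a lower bound of the ratio, 16 at a ratio of 2, 141 at a PM mean of at least 1 FPKM and 28 at a PM mean of at least 10. The number meeting it was 43 to 64 without single libraries and 61 after median-ratio scaling, 49 of them members. Members called higher in PM than in LL numbered 8 in a fit on the 12 libraries compared and 8 without LL 3, SOL 3 and SOL 5, against 14 as reported, and 7 to 12 without single libraries. Members called higher in PM than in SOL numbered 23 to 30 without single libraries, against 28. With the replicate block, 18 members were higher in PM than in LL, 31 were higher in PM than in SOL, and 4 differed between SOL and LL, against 1 without it. Between SOL and LL, 2 were called after median-ratio scaling, 0 in a fit on 12 libraries, 2 without LL 3, SOL 3 and SOL 5, and 0 to 4 without single libraries. Among replicate numbers, 4 members were called with a pseudocount of 1, 2 with a filter of 1 FPKM, 2 without LL 3, SOL 3 and SOL 5, and 0 to 3 without single libraries. For these alternative fits no share over all genes was computed, except among replicate numbers without single libraries. Nothing is therefore read from the changes in member counts, and their cause was not tested. The members' mean correlation was 0.019 to 0.040 without single libraries. Of 2700 recomputed log2 differences of single members between PM and another muscle, 0 moved by more than the spread between libraries and 0 called differences changed sign. Leaving out 1 of 6 libraries cannot move a muscle mean by that spread. A block, a filter or a fit on 12 libraries leaves the differences unchanged. Nothing is therefore read from these counts of 0. Depth limits members of low level or short length most: the fewest reads behind a PM mean were 102 over 6 libraries.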
